A study of Drosophila melanogaster with 2 samples.

Results

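The genes described here were Trl, Adf1, Dref, M1BP, pzg, psq and lolal, 7 of the 18277 annotated genes of Drosophila melanogaster. Each encodes a transcription factor, or a protein partner of one, that acts at promoters. They were chosen by the Wdn-eGFP peaks and signals of the lists described here, so their counts and levels are descriptions and no test was run on them. All peaks with a summit in one of the gene bodies or within 1 kb of one of their transcript starts were taken, which gave 13 of the 3254 peaks of the main list. On the dm6 build, Trl (FBgn0013263) lies at 3L 14747929 to 14761049, Adf1 (FBgn0284249) at 2R 6662265 to 6668085, Dref (FBgn0015664) at 2L 9964147 to 9967229 and M1BP (FBgn0037621) at 3R 8729790 to 8731698. The gene pzg (FBgn0259785) lies at 3L 21286099 to 21290310, psq (FBgn0263102) at 2R 10557888 to 10617280 and lolal (FBgn0022238) at 2R 18154095 to 18158192.

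The material was whole embryos of the wdn-GFP strain, aged 0 to 24 hours, in which the zinc finger protein Wings down (Wdn) carries an eGFP tag. Sonicated chromatin was precipitated with an antibody against GFP and sequenced, as 1 group of 2 biological replicates that all share the tagged protein. A control library was not analysed here, the embryos mix all tissues and stages of that age window, and peak lists hold nothing that checks the tissue or the tag. The main list was made from both replicates together, a second list named conservative was also made for both together, and each replicate had a list of its own. Listed peaks had a global irreproducible discovery rate (IDR) of at most 0.01. The global IDR estimates the share, among all peaks ranked at least as high, that do not recur between data sets. Peaks that were ranked but did not enter a list are called candidates. The main list held 3254 of 132052 ranked peaks, the conservative list 2722 of 123739, replicate 1 had 1996 of 70777 and replicate 2 had 1796 of 85201. The signal of a peak is the authors' own peak-caller value. Its reference is not stated, so ranks and medians of signal were taken only within a list. Where values of the 2 replicates' lists were joined in ratios, means, SDs or distances, their scales were assumed to be alike. Read depth is unknown, since the lists give no read counts. A promoter summit is one that lies no more than 500 bp from an annotated start of transcription. A gene with such a summit of the list in question is called bound.

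The proteins fall into 3 groups of known function. Trl encodes GAGA factor, a BTB-domain protein that binds GA repeats and helps to keep promoters open; psq encodes a BTB protein that binds similar repeats through its Pipsqueak domains; lolal (Batman) encodes a small protein made mainly of a BTB domain that pairs with such factors. Dref binds the DNA replication-related element (DRE) at promoters of growth and housekeeping genes, pzg (also called Z4) encodes a zinc finger partner of Dref and of the chromatin protein Chromator, and M1BP binds the core promoter element Motif 1. Adf1 encodes a MADF-domain factor first studied as an activator of Adh and known for its role in neurons. Wdn is less well described; it is a C2H2 zinc finger protein.

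The stretches below show the DNA under 6 of the peaks on which the results turn, each read 5′ to 3′ on the + strand of dm6 (RefSeq copy of the assembly). For Trl they are peaks 2, 3 and 4 in the direction of transcription, peak 3 being the strongest. For Dref, M1BP and pzg they are the part of the peak between the gene's start and the start of the diverging neighbour. No exon is included. Capitals mark matches, on either strand, to the words searched: GAGAG, the DRE TATCGATA, the Motif 1 core GGTCACACT and CACAGTG, and also ATCGATA, 7 of the 8 letters of the DRE, which was looked for only after the sequence at Dref was seen.
Trl peak 2, chr3L:14760082-14760381: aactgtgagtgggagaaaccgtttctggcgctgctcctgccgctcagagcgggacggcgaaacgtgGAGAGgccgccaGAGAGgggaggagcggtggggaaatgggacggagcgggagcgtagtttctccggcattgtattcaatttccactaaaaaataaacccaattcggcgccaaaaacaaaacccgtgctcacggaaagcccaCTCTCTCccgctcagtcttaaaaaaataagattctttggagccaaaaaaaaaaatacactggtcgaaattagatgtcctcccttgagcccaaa
Trl peak 3, chr3L:14759379-14759669: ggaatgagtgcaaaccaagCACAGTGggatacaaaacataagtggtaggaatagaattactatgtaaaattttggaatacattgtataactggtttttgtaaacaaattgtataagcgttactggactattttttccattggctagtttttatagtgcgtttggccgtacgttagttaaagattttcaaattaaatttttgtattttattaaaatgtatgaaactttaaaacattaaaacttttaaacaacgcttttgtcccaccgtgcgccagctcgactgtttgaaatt
Trl peak 4, chr3L:14758043-14758342: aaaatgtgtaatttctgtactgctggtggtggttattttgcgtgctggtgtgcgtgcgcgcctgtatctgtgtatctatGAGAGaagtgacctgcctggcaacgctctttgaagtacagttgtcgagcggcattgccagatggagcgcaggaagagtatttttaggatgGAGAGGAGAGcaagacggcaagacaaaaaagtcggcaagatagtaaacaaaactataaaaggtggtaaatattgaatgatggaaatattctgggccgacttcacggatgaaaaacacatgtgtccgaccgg
Dref, chr2L:9967230-9967312: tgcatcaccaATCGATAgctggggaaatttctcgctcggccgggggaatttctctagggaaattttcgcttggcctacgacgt
M1BP, chr3R:8731875-8732090: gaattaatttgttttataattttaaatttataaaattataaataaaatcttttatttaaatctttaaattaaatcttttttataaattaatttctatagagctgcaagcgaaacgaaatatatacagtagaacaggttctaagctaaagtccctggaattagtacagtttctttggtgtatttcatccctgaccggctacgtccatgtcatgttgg
pzg, chr3L:21285963-21286070: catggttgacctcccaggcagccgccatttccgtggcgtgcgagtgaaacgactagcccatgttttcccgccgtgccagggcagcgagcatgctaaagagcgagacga

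All 7 genes had at least 1 peak of the main list, but only 6 had one at a transcript start. Across all genes, 15.7% of those that had any ranked peak within 500 bp of their starts were bound in the main list, and 17.7% of annotated genes had a main-list summit in the body or within 1 kb of a start; the members were selected on these calls, so nothing is read from 6 of 7 and 7 of 7. Of the 13 peaks, 7 had promoter summits, 5 had intronic summits and 1 lay in an exon of a noncoding RNA gene. Trl carried 6 of them, Adf1 carried 2, and the other 5 genes carried 1 each, always at a start. In the conservative list 6 of the 7 genes were bound as well, beside 14.3% of genes, and all 13 peaks were in it.

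The 7 promoter peaks stood between the top 14.4% and the top 51.9% of promoter peaks of the main list, and the 2 strongest peaks of the 7 genes were intronic. Promoter signals of the 7 genes ran from 80.8 to 191 with a median of 97.5, beside a median of 82.5 over the 1705 promoter peaks of the main list. Intronic signals ran from 6.89 to 770 with a median of 81.4, beside 73.4 over 1076 intronic peaks. The intronic peaks of Adf1 (770) and Trl (725) ranked 14 and 18 of the 3248 main-list peaks on the assembled chromosomes, and 3 and 4 of the 1076 intronic peaks. No promoter peak of the 7 genes ranked above 353.

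**Figure D1:**
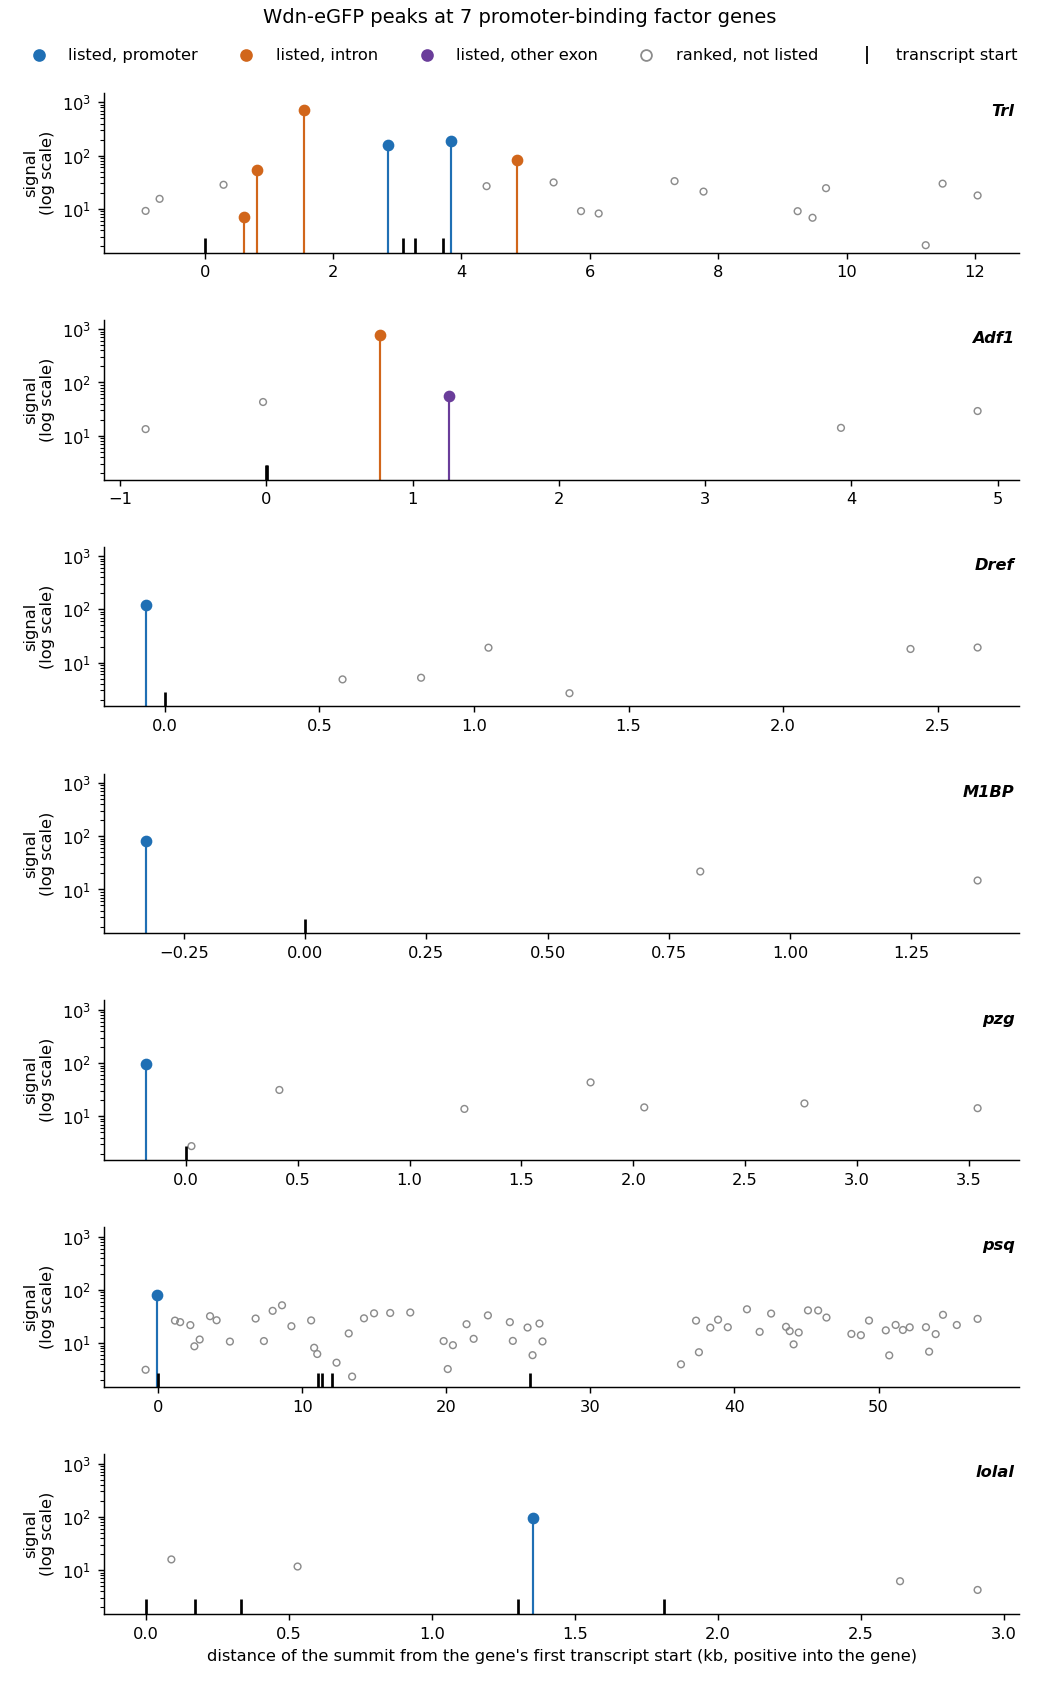
Main-list peaks (filled points on stems) and candidates (open points) of the 7 genes, as signal on a log scale against distance of the summit from the gene's first transcript start in kb; black ticks mark transcript starts. The intronic peaks of Trl (725) and Adf1 (770) are the tallest, and psq carries 1 listed peak at its first start among 66 candidates.

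Trl, the GAGA factor gene, had a cluster of 6 peaks over its 5′ part. The summits spanned 4243 bp of the 13121 bp gene, from 618 to 4861 bp downstream of its first start, and neighbouring summits were 200 to 1315 bp apart. Of the 18277 genes, 33 (0.181%) had at least 6 summits by the same count. Among the 996 genes of 10 to 20 kb, 372 (37.3%) had at least 1, 147 (14.8%) had at least 2, and 7 (0.703%) had at least 6. These 7 were HmgD with 9, HmgZ and CG14434 with 7 each, and PRAS40, Socs36E, lncRNA:CR43334 and Trl with 6 each. The 6 at Trl include 2 overlapping entries that fell on 1 peak of each replicate. Replicate 1 alone listed 4 Trl peaks and replicate 2 alone listed 3.

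**Figure D2:**
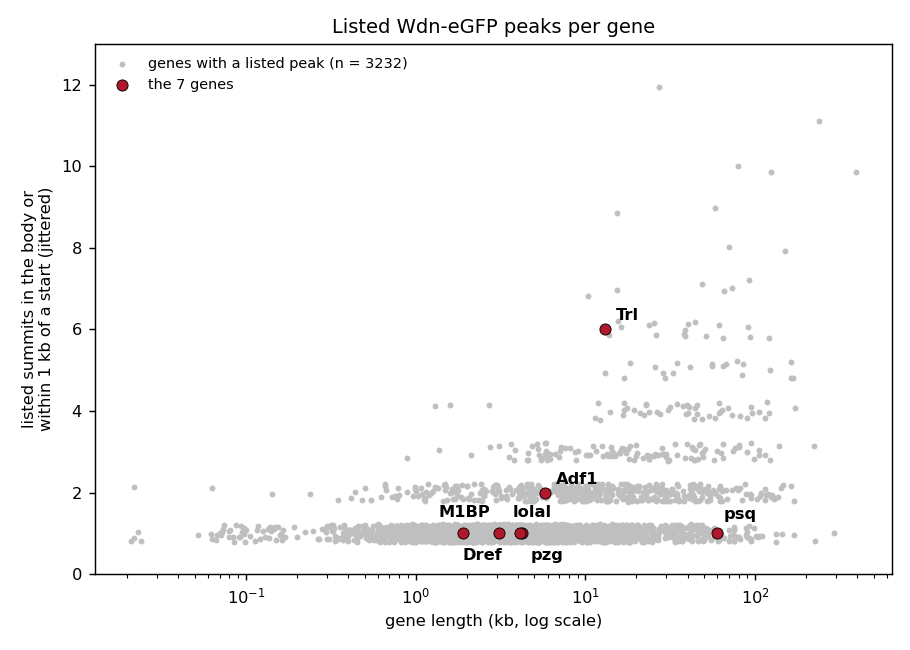
Number of main-list summits per gene (grey points are shifted slightly up or down to separate them) against gene length in kb on a log scale, for the 3232 genes with at least 1. Trl stands at 6 and Adf1 at 2, while Dref, M1BP, pzg, psq and lolal stand at 1. The longest of these genes is psq.

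Gene structure places the first 3 Trl peaks in 2 ways. Of the 10 annotated Trl transcripts, only Trl-RF begins at the first start (14761049), and its second intron, of 3233 bp, holds peaks 1 to 3. The other transcripts begin at 14757962 (7 transcripts), 14757779 (1) and 14757336 (1), so the same 3 summits lie upstream of them. The strongest, peak 3 (summit 14759507, signal 725, IDR 1e-05), was 1542 bp downstream of the first start and 1545 bp upstream of the start of the 7 transcripts. Its signal was 319 in replicate 1 and 399 in replicate 2 (359 ± 56.6, SD, n = 2), and both replicates listed it, with summits 7 bp apart. It was high in both replicates, and no other Trl peak reached it in either. The sequence printed for it is 68.7% A or T and holds no GAGAG, but 1 CACAGTG that begins 109 bp before the summit.

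The 2 Trl promoter peaks flanked the cluster of downstream starts. Peak 4 (summit 14758192, signal 159, IDR 1.89e-05) was 230 bp upstream of 14757962, a start that Trl shares with CG42507. Its signal was 132 in replicate 1 and 32.5 in replicate 2, and only replicate 1 listed it, the IDR in replicate 2 being 0.0161. That ratio of 4.06 between replicates was matched or exceeded at 29 of 3179 main-list peaks with a ranked peak in both replicates (0.912%), where the median ratio of the higher to the lower was 1.32 and the 95th percentile was 2.53. Peak 5 (summit 14757215, signal 191, IDR 1e-05) lay 121 bp inside the transcript that starts at 14757336. Its signal was 105 in replicate 1 and 93.4 in replicate 2 (99.2 ± 8.28, SD, n = 2), and both listed it. The order of these promoter peaks was therefore not the same in the replicates: peak 4 was the higher in replicate 1 and the lower in replicate 2.

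The remaining 3 Trl peaks were weaker and were listed by 1 replicate each. Peak 6 (summit 14756188, signal 81.4, IDR 3.04e-04) lay in an intron of 2353 bp shared by all 10 Trl transcripts and by 2 transcripts of CG42507. Its signal was 30.7 in replicate 1, which did not list it (IDR 0.358), and 50.6 in replicate 2, which did. Peaks 1 and 2 (summits 14760431 and 14760231, signals 6.89 and 54.4) overlapped each other by 104 bp and both fell on the same single peak of each replicate, with a signal of 26.8 in replicate 1 and 27.0 in replicate 2, listed by replicate 1 only. They are thus 2 entries of the main list for 1 replicate peak. All 55 main-list peaks with a signal under 10 overlapped a stronger listed peak in the same way.

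At Trl the intronic maximum exceeded the promoter maximum 3.79-fold in the main list. The ratio was 2.42 in replicate 1 (319 over 132, with peak 4 as the promoter maximum) and 4.27 in replicate 2 (399 over 93.4, with peak 5). Of the 252 genes with both a promoter and an intronic main-list peak, the intronic one was stronger in 121 (48.0%), the median ratio was 0.950, and 17 (6.75%) had a ratio at least as high as Trl. By the replicate signals of both sites on the log2 scale (4 values, 246 genes), the genes most like Trl were CHES-1-like, LPCAT and CG42327, at distances of 1.09, 1.53 and 1.56. In CHES-1-like, for example, the promoter signals were 89.9 in replicate 1 and 124 in replicate 2, and the intronic signals were 215 and 228.

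**Figure D3:**
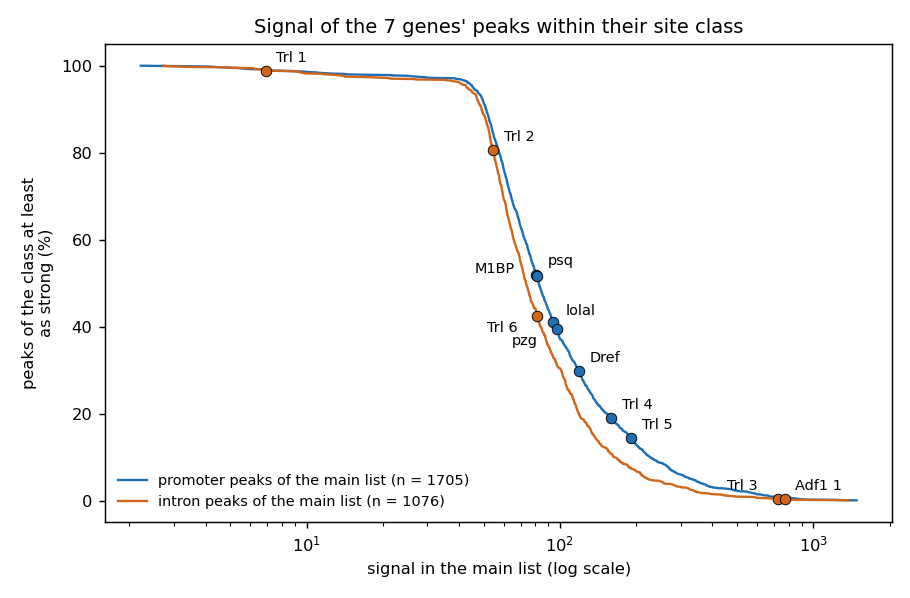
Share of promoter (blue) and intronic (orange) main-list peaks, in percent, with at least the signal on the log-scaled horizontal axis; circled points mark the peaks of the 7 genes. The intronic peaks of Trl (peak 3, 725) and Adf1 (peak 1, 770) lie at the strong end, and the promoter peaks lie between 80.8 and 191.

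Adf1 was the only one of the 7 genes with listed peaks but no promoter summit at the 500 bp limit; with a limit of 1000 bp its first peak counted as one. Its first peak (summit 6663042, signal 770, IDR 1e-05) was 772 bp downstream of the nearer start, in an intron of 3962 bp that all 4 Adf1 transcripts share. The signal was 374 in replicate 1 and 412 in replicate 2 (393 ± 26.9, SD, n = 2), both listed it, and their summits were 1 bp apart. It was the strongest peak of the 7 genes in the main list and in each replicate. The second Adf1 peak (summit 6663511, signal 56.2, IDR 8.07e-04) was 131 bp wide and lay in the same intron, within an exon (6663395 to 6664056) of the noncoding RNA gene lncRNA:CR45128. Its signal was 38.8 in replicate 1 and 40.6 in replicate 2, and both listed it.

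A candidate did lie at the Adf1 start. Its summit was 22 bp upstream of the start, its signal 42.9 and its IDR 0.128 in the main ranked list and 0.152 in the conservative one. Replicate 1 had a candidate 28 bp inside the gene with a signal of 25.4 (IDR 0.0790), and the ranked list of replicate 2 had none within 500 bp of a start. The intronic signal was 17.9-fold that of the start candidate in the main list and 14.7-fold in replicate 1.

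The Dref, M1BP and pzg peaks lay over all or part of short gaps between diverging genes, and in each the neighbour's start was nearer to the summit. Only the Dref peak covered its whole gap, while the M1BP and pzg peaks did not reach the starts of M1BP and pzg. The Dref and M1BP summits lay in the gap, and the pzg summit just inside the neighbour. These 3 peaks cannot be given to 1 gene of the pair. At Dref (summit 9967291, signal 118, IDR 8.71e-05) the summit was 62 bp upstream of Dref and 22 bp upstream of RpL13, which encodes a ribosomal protein, and the starts were 84 bp apart. The signal was 58.6 in replicate 1 and 59.5 in replicate 2 (59.0 ± 0.680, SD, n = 2), and both listed it. The Dref gap printed above holds 1 match to 7 of the 8 letters of the DRE, beginning 51 bp before the summit, and no match to all 8. Within 150 bp of the summit, 286 of 1705 promoter peaks (16.8%) held those 7 letters.

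At M1BP (summit 8732027, signal 80.8, IDR 7.26e-04) the summit was 329 bp upstream of M1BP and 64 bp upstream of CG8202, with the starts 393 bp apart. The signal was 36.5 in replicate 1 and 41.9 in replicate 2 (39.2 ± 3.83, SD, n = 2), and both listed it. At pzg (summit 21285919, signal 97.5, IDR 2.73e-04) the summit was 180 bp upstream of pzg and 43 bp inside CG12974, with the starts 137 bp apart. The signal was 38.6 in replicate 1, which did not list it (IDR 0.754), and 61.0 in replicate 2, which did. The pzg summits of the replicates were 94 bp apart, against 14 bp at Dref and 31 bp at M1BP.

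Both remaining BTB-family genes, psq and lolal, had a promoter peak with no other gene's start within 500 bp. The psq peak (summit 10557765, signal 81.1, IDR 8.27e-04) was 123 bp upstream of the first of its 5 starts. Its signal was 29.7 in replicate 1, which did not list it (IDR 0.0951), and 50.3 in replicate 2, which did. The lolal peak (summit 18156840, signal 94.2, IDR 3.16e-04) was 52 bp inside 1 of its 5 starts (18156892), used by 2 of 8 transcripts. Its signal was 48.5 in replicate 1 and 47.7 in replicate 2 (48.1 ± 0.555, SD, n = 2), and both listed it.

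The longest of the 7 genes was psq. The gene covers 59393 bp and had 67 ranked peaks, or 1.13 per kb, of which 1 was listed. Over the whole series, 3254 of 132052 ranked peaks entered the main list, so nothing is read from 1 of 67. The other 66 ranked peaks of psq were candidates, 53 of them intronic, with a median signal of 19.9. The candidate nearest to the threshold was intronic (summit 10598754, signal 43.3, IDR 0.0139). An intronic candidate at 10566477 with a signal of 51.5 had an IDR of 0.0247 in the main ranked list and was listed in the conservative one, where pzg too had 1 further peak, at 21286124 with a signal of 2.76. Across Trl, Adf1, Dref, M1BP, pzg and lolal together the highest candidate signal was 43.4, at pzg. No candidate of any of the 7 genes had an IDR of at most 0.01.

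In order of their strongest promoter peak in the main list the genes were Trl (191), Dref (118), pzg (97.5), lolal (94.2), psq (81.1) and M1BP (80.8). Between the means of the 2 replicates at these peaks, Trl peak 5 (99.2 ± 8.28) and Dref (59.0 ± 0.680) were further apart than their standard deviations. From Dref on, no neighbours in the order differed beyond that spread: pzg had 49.8 ± 15.8, lolal 48.1 ± 0.555, psq 40.0 ± 14.6 and M1BP 39.2 ± 3.83. An SD of 2 values is a rough measure, so the full order from Dref to M1BP is not firm. Dref, lolal and M1BP kept their order in both replicates, while pzg and psq changed places among them. On the log2 signals of both replicates (2 values), the comparison was limited to 1953 other genes with a promoter and no intronic main-list peak whose promoter peak was ranked in both replicates. Among them the genes most like Dref, M1BP and pzg were the neighbours that share their peaks, RpL13, CG8202 and CG12974. Next to them came Mau2 and Spn88Eb for Dref, Tango2 and tth for M1BP, and CG6805 and NiPp1 for pzg. Both genes of each such pair had the same 2 values, so a pair is not 2 separate likenesses. The nearest to psq were Kat60, Mms19 and Srp19, and the nearest to lolal were Brd7-9, DIP2 and wac, all within a distance of 0.0721. Kat60 and Mms19 likewise had the same 2 values, as did DIP2 and wac.

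Of the 13 peaks, 7 were found in the own list of both replicates. Among promoter peaks these were 4 of 7, at Trl (peak 5), Dref, M1BP and lolal, where 44.3% of all promoter peaks of the main list were so found. Among intronic peaks they were 2 of 5, at Trl (peak 3) and Adf1 (peak 1), where 35.8% of all intronic peaks were; the Adf1 exon peak was the other. Support rose with signal over the whole list: of promoter peaks, 40.0% of those with a signal from 75 to 100 were in both own lists, 89.1% of those from 100 to 200 and 100% of those above. Trl peak 4, at 159, was among the 44 promoter peaks of its range that were in 1 own list only.

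**Figure D4:**
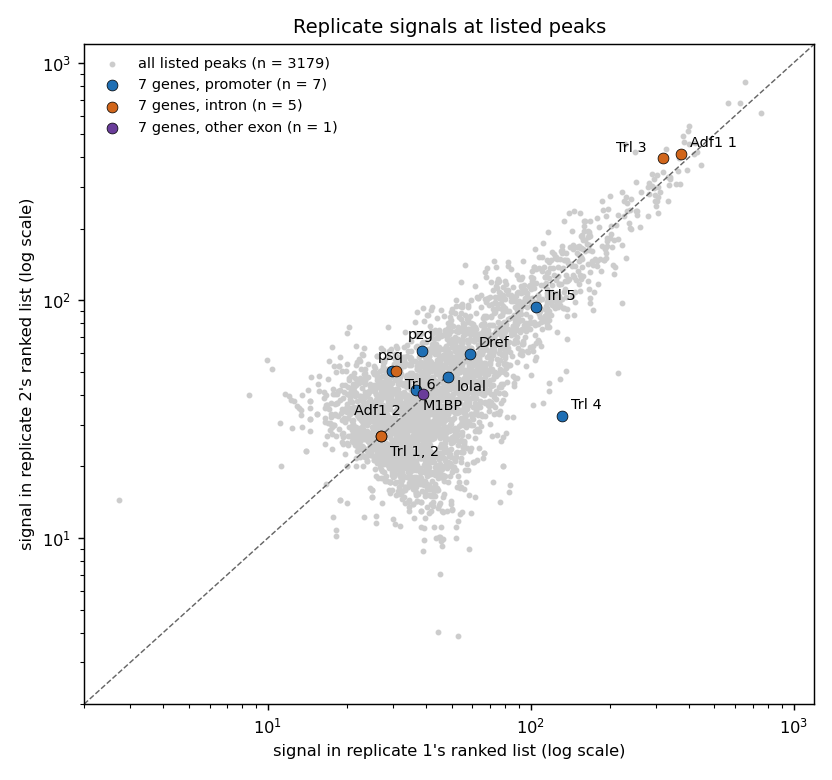
Signal of each main-list peak in the ranked list of replicate 2 against that of replicate 1, both on log scales, with the dashed line marking equal values; grey points are the 3179 peaks ranked in both. Trl peak 3 and Adf1 peak 1 lie high on the line, Trl peak 4 (132 and 32.5) lies well below it, and psq and pzg lie above it.

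The replicates differed in which of the 7 genes they bound. Replicate 1 alone listed 9 peaks and bound 4 of the 7 genes, where 12.9% of genes with a ranked peak at a start were bound. Replicate 2 alone listed 10 peaks and bound 6, where 13.1% of genes were bound; Adf1 had no ranked peak at a start there. The difference was pzg and psq, which replicate 2 listed and replicate 1 held only as candidates. At Trl, replicate 1 listed 4 peaks and replicate 2 listed 3, of which peaks 3 and 5 were common to both.

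The words known for the members' own proteins were counted close to the 13 summits, and no scarcity or excess is read from the counts. Within 50 bp of the summit, GAGAG was present at 2 of 13 peaks, Trl peak 4 with 2 matches beginning 20 and 25 bp after the summit and lolal with 1, while 10.3% of main-list peaks and 12.5% of all ranked peaks held it. The DRE (TATCGATA) and the Motif 1 core (GGTCACACT) were at none of the 13; 2.52% and 0.880% of promoter main-list peaks held them. CACAGTG was searched for another reason: it is the core of words found in earlier results of these same data. It was at 1, lolal, beside 3.08% of main-list peaks and 1.43% of ranked peaks. Since the word came from these data, nothing is read from its shares. A repeat of the kind described for Adf1 was at none, beside 1.26% of main-list peaks.

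Within 150 bp, a window chosen after the narrower results were known, GAGAG was at 5 of 13 peaks (Trl peaks 1, 2 and 4, Dref and lolal), beside 38.2% of main-list peaks. CACAGTG was then at Trl peak 3 and lolal, beside 11.3%, and the Adf1 repeat at Adf1 peak 1 and M1BP, beside 5.91%. The DRE and the Motif 1 core were again at none, beside 9.21% and 4.40% of promoter peaks. Matches were counted on both strands, neighbouring GAGAG matches can overlap, and a match or its absence says nothing of whether a factor binds there. The 101 bp around the summits were 61.4% A or T in the median (50.5% at lolal to 75.2% at Trl peak 6), against 65.3% over the main list and 52.5% over ranked peaks.

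Among genes related to the 7 by partnership or protein family, the share bound ran from 16.7% to 46.7% over 5 lists. Of 15 genes of partners and neighbouring pathways, 7 (46.7%) were bound in the main list, against 15.7% of genes. The strongest promoter signals were at Chro (669), which encodes Chromator, a partner of the pzg product, at Dp (168), the partner of E2F, at BEAF-32 (86.8), an insulator protein gene, and at lola (84.7). Of 13 further BTB genes 5 (38.5%) were bound, led by Cp190 (271), an insulator cofactor gene, and followed by lola, ken (68.8) and BtbVII (53.2). Of 6 other Pipsqueak-domain genes 1 was bound (cag, 97.6), of 6 other MADF-domain genes 1 (hng3, 109), and of 9 broadly acting factor genes with a ranked peak at a start 2 (BEAF-32 and Nf-YA, 58.5). The lists overlap: they hold 41 different genes with a ranked peak at a start, of which 13 (31.7%) were bound, with a median promoter signal of 84.7 where all bound genes had 87.2. In the replicates' own lists the counts of bound partner and BTB genes were lower. The Pipsqueak-domain and MADF-domain lists kept 1 bound gene each in both replicates. Of the broadly acting factor genes, replicate 1 bound 0 of 10 and replicate 2 bound 2 of 5. Of the partner genes with a ranked peak at a start, replicate 1 bound 5 of 15 (lola, gfzf, Trf2, Chro and Dp) and replicate 2 bound 4 of 11 (lola, Chro, BEAF-32 and Dp). Of the BTB genes, replicate 1 bound 2 of 12 and replicate 2 bound 2 of 10, in each case Cp190 and lola. Over the 5 lists, each replicate bound 8 genes, of 40 with a ranked peak at a start in replicate 1 and of 30 in replicate 2, where 12.9% and 13.1% of all such genes were bound. These lists were drawn up with earlier results of the same peaks known, and their shares are descriptions.

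Just outside the rule's window of 1 kb, the main-list summit nearest to Trl was 1349 bp beyond its first start, with a signal of 92.6, and lay 370 bp inside Mgat4a. The nearest to psq was 3337 bp upstream (58.3), in intergenic sequence. For Adf1, Dref, M1BP, pzg and lolal the nearest lay 5369 to 14271 bp away. Measured to the nearest start of the same gene, 5 summits inside the window lay upstream. They were at Dref (62 bp), psq (123 bp), pzg (180 bp), Trl (peak 4, 230 bp) and M1BP (329 bp), with signals of 80.8 to 159.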

How the data were processed

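The files were peak lists on dm6 for 2 biological replicates of 1 group. Which aligner and which peak caller made them is not given in the sources used here. For each peak, the deposited signal is the authors' peak-caller value, with no stated reference. The deposited score is an IDR score capped at 1000, and the authors' ranked lists hold global IDR as −log10, with 5 as the highest value. Thresholded lists derive from 1 further input that the ranked lists do not name. In each ranked list 8 columns with no sample label were not used.

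Summits were placed on Ensembl release 115 genes of the same assembly. A replicate supported a peak when its own list overlapped it by at least 1 bp. Motifs were searched on both strands within 50 bp. Named genes were the 7 members, genes sharing their promoter peaks, up to 4 bound genes of each of 5 related lists, and the 3 genes of nearest signal. Counts and medians were made with Python 3.11.15 and pandas 2.3.3, and the assignment was tested on simulated summits. The members and the gene lists were chosen with earlier results of these data known. With 1 group, no comparison of conditions and no test was made. Alternatives covered other lists, a stricter IDR, promoter windows and overlap rules. The list symbols vfl, Dip3 and NfY-A were matched to the annotation's zld, Dlip3 and Nf-YA. Printed sequences come from the RefSeq copy of dm6.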

Additional observations from a re-analysis of the deposited data

How the results depend on the processing

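Of 35 alternative values, 25 stayed within 1.5 times the reported count (for the Trl ratio, within 1 SD of the replicates' ratios) and 10 moved further; no result has a test. The 6 bound genes became 7 with a promoter window of 1000 bp, where Adf1 joins them, 5 with 200 bp, and 3 when each summit was given only to its nearest start, since Dref, M1BP and pzg share theirs with a nearer neighbour, and ran from 4 to 6 over the single replicates' lists. The 7 promoter peaks became 11 with a promoter window of 1000 bp, and ran from 5 to 6 over single replicates. The 5 intronic peaks became 3 at a global IDR of at most 0.001, which removes Trl peaks 1 and 2, 2 with the 1000 bp window, and were 3 in each replicate's list. The 13 peaks were 9 to 15 under all alternatives, 9 to 10 in single replicates. The 7 peaks in both own lists were 6 at 50% reciprocal overlap and 10 in ranked lists at an IDR of at most 0.05. The Trl ratio of intronic to promoter signal, 3.79, was 2.42 to 4.27 in single replicates, where Trl peak 4 in replicate 1 decides it. Peaks with any of the 5 motifs went from 2 to 8 in windows of 150 bp each side, an alternative chosen after seeing the data, as the window holds more letters. The 13 bound genes of the related lists were 8 in each replicate's own list, also an alternative added after seeing the data. No paired analysis was possible because there was 1 group. With 2 replicates and no analysed control, and with depth unknown, no false-positive rate could be set for a single peak and a signal near the threshold is not firmly ranked.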
